A study of Mus musculus with 5 samples.

Results

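The factors that give neurons their subtype were followed in sorted sympathetic neurons: 3 T-box genes (*Tbx20*, *Tbx2*, and *Tbx3*), 4 LIM-homeodomain genes (*Isl2*, *Lhx1*, *Lhx3*, and *Lhx4*), the homeodomain gene *Mnx1*, and the Onecut genes *Onecut1* and *Onecut2*. These 10 genes were selected by symbol and grouped by protein family, with the genotype differences of these same libraries already known, and *Tbx20* is on the list of differing genes that the study drew from them. The study prints its identifier, ENSMUSG00000031965, under the symbol *Tbx2* with the full name of T-box 20, and the GENCODE annotation names it *Tbx20*. Of the 10 genes, 6 had a row among the 20224 genes of the counts table. *Lhx1*, *Lhx3*, *Mnx1*, and *Onecut1* had none and were not analysed here. Of the 6, 5 passed the filter on low counts and *Isl2* did not. Because the genotype comparison was known when the genes were chosen, their differences are given as a description, with standard errors and without p-values.

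The libraries came from E14.5 mouse embryos of non-diabetic pregnancies, 2 controls (replicates 5 and 6) and 3 *Hif1aCKO* (replicates 3, 4, and 5), and each held 100 cells sorted from dissociated sympathetic ganglia for eGFP and tdTomato. All embryos carried *Isl1Cre*, the *tdTomatoAi14* reporter, and *Prph-eGFP*. Controls had the *Hif1a* genotype *loxP/+*, so 1 allele could be deleted in them too, and *Hif1aCKO* embryos were *loxP/loxP*, with exon 2 of *Hif1a* between the loxP sites. *Isl1-Cre* is a knock-in that acts in every cell type that has expressed *Isl1*, which includes motor and sensory neurons and parts of the heart, and it occupies 1 *Isl1* allele in both groups. *Hif1a loxP* mice were on a mixed C57BL/6J and C57BL/6N background and *Isl1Cre* mice on FVB. The study's methods count 2 and 3 embryos and call each library a biological sample, and the labels give no batch. Values of single libraries follow the order replicates 5 and 6 for the controls and replicates 3, 4, and 5 for *Hif1aCKO*.

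T-box proteins bind DNA through the domain that names them and act in the heart, limbs, and some motor and autonomic neurons, *Tbx2* and *Tbx3* as repressors. LIM-homeodomain proteins work in combinations held together by the cofactor *Ldb1*: in the spinal cord *Isl1* with *Lhx3* specifies motor neurons, and *Mnx1* fixes that fate. Onecut proteins act upstream of *Isl1* in motor neurons and are also found in other early neurons. Sympathetic neurons use *Isl1* beside *Hand2* and *Gata3*.

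Counts per library totalled 8254211 to 9700887. The 17 sympathetic neuron markers all had rows and were led by *Stmn2* and *Gata3*. They summed to 80698 and 99751 normalized counts in the controls and 76571 to 80146 in *Hif1aCKO*, below both controls. All *Hif1aCKO* libraries lay below both controls for 6 of the 17, among them *Th*, the enzyme that starts catecholamine synthesis, and *Dbh*, and above both for 3. Of all 15032 genes tested, 12.9% lay below both controls in this way and 12.9% above both. edgeR's quasi-likelihood test called 0 of the 17, and DESeq2 called 1 (*Gata2*, higher in *Hif1aCKO*), beside 0.388% of 15478 genes. The part of these markers in the differences of the factors, *Tbx20* included, was not tested. *Hif1a* had 2086 and 1584 normalized counts in the controls and 2747, 1757, and 2135 in *Hif1aCKO*, which overlap. Its counts cover all exons, so the deletion of exon 2 cannot be read from them. The antisense gene *Gm15283* covers 5.60% of its exonic bases. *Xist*, the RNA of the inactive X chromosome, was high in control replicate 5 and *Hif1aCKO* replicate 3 and had at most 3 counts elsewhere, and Y-linked *Ddx3y* was high in the other three, so each genotype held both sexes. *Hif1aCKO* replicate 3 stood apart in Schwann cell and glia markers, which summed to 1199 normalized counts there and to 30.6 to 55.2 in the other 4 libraries. Mesenchyme markers, led by *Col1a2* and *Col3a1*, summed to 3.71 to 26.3, and endothelium markers, led by *Kdr* and *Pecam1*, to 1.07 to 38.0.

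Of the 5 fitted factors, *Tbx20* differed most between genotypes, with a 3.32-fold lower mean level in *Hif1aCKO* neurons. *Tbx3* was higher in each *Hif1aCKO* library than in both controls, *Tbx2* was higher in 2 of 3, and *Lhx4* and *Onecut2* differed by less than their standard errors. *Isl2* had 0 to 7 counts per library. Normalized counts are counts divided by the library's effective size, its total times a TMM (trimmed mean of M-values) factor, and set to the mean effective size. Calls required 3 things: Benjamini-Hochberg adjustment of p over all genes below 0.05, an absolute log2 fold change above 0.3, and 50 or more normalized counts on average. By edgeR's quasi-likelihood test 0 of the 5 fitted factors and 0.00% of all 15032 genes tested were called. With p below 0.05 before adjustment there was 1 of the 5, beside 7.67% of all genes. DESeq2 with the same thresholds called 1 of the 5 (*Tbx20*), beside 0.388% of 15478 genes, and limma-voom called none. All *Hif1aCKO* libraries lay below both controls for 1 of the 5 factors, beside 12.9% of all genes, and above both for 1, also beside 12.9%. Nothing is read from these counts for the factors, since the comparison helped to choose them.

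**Figure D1:**
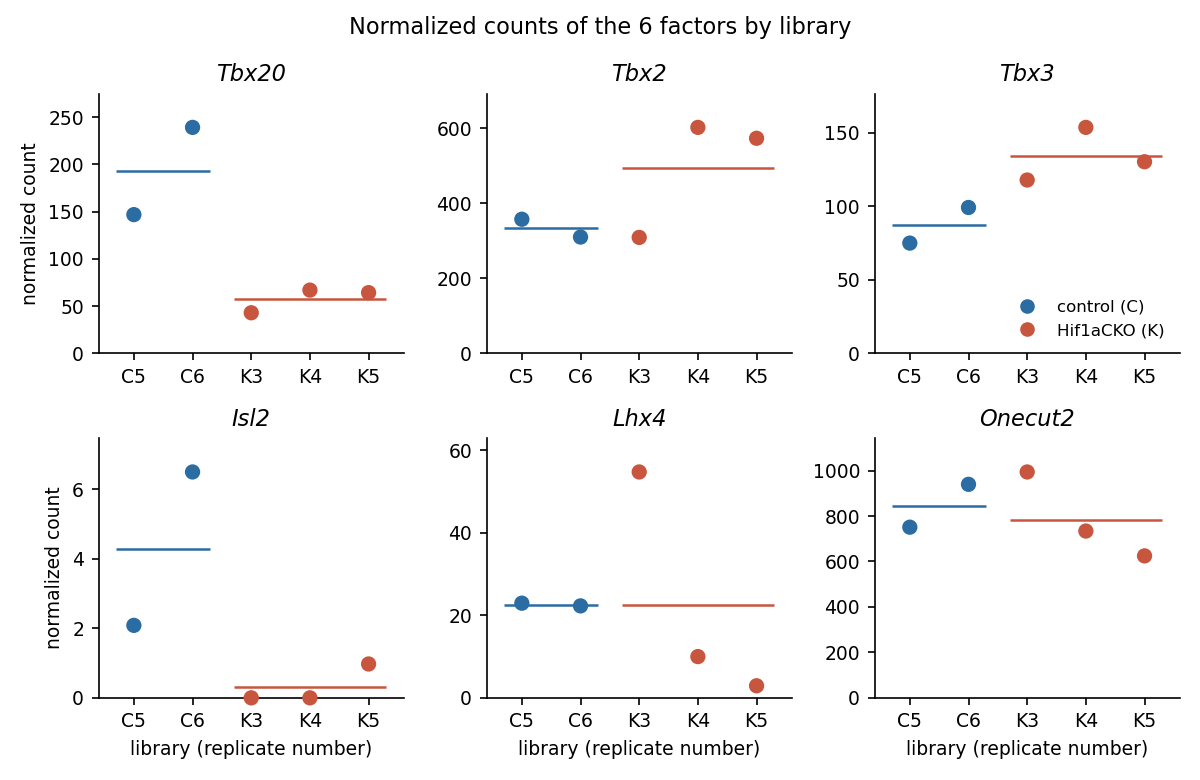
Normalized counts (vertical axes, each from 0) of the 6 factors with a row in the counts table, by library on the horizontal axes, with C for control and K for *Hif1aCKO* before the replicate number. Points are single libraries and horizontal lines are group means. *Tbx20* had 147 and 239 in the controls and between 42.9 and 66.9 in *Hif1aCKO*, and *Lhx4* reached 54.7 in K3 alone.

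*Tbx20* (ENSMUSG00000031965, chromosome 9, 24718138 to 24774303, minus strand, GRCm38) encodes a T-box factor known for its part in heart development and in the migration of hindbrain motor neurons. Its normalized count was 147 and 239 in the controls and 42.9, 66.9, and 64.2 in *Hif1aCKO*. The groups did not overlap. Between libraries with *Xist* the value was 42.9 against 147 in control replicate 5. Between those without it was 66.9 and 64.2 against 239 in control replicate 6. The part of sex in the difference was not tested. The raw counts behind these values were 141 and 258 against 40, 67, and 66. As a measure of depth, the exact 95% Poisson interval ran from 28.6 to 54.5 counts for the lowest count and from 227 to 291 for the highest. Such intervals cover counting error only, since amplified reads are not independent molecules. Group means were 193 ± 65.4 (SD, n = 2) and 58.0 ± 13.2 (SD, n = 3), a 3.32-fold lower level with a log2 fold change of -1.73 (standard error, SE, 0.38). Without control replicate 6 the log2 fold change was -1.34, and without control replicate 5 it was -2.04. Without *Hif1aCKO* replicate 3, the library with glial markers, it was -1.56. In bulk libraries, fewer cells that express a gene and less RNA per cell cannot be told apart.

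The promoter window of *Tbx20*, 250 bases before to 50 after a RefSeq start site, is shown with that of *Isl1*, a LIM-homeodomain gene that also lay below both controls in all *Hif1aCKO* libraries and that had ample counts, unlike *Isl2*. Capitals mark ACGTG or GCGTG on either strand, the core to which HIF-1 can bind, and where the match is on the opposite strand the capitals show its reverse complement. The *Tbx20* window is chr9:24774254-24774553 and that of *Isl1* chr13:116309639-116309938, both on the minus strand of GRCm38.p6 and printed 5′ to 3′ along the gene.
Tbx20: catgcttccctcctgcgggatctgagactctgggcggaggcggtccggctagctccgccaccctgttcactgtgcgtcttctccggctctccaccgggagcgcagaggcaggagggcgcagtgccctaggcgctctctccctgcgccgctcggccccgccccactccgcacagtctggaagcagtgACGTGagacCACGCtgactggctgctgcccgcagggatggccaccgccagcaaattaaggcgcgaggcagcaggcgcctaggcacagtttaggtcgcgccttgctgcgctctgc
Isl1: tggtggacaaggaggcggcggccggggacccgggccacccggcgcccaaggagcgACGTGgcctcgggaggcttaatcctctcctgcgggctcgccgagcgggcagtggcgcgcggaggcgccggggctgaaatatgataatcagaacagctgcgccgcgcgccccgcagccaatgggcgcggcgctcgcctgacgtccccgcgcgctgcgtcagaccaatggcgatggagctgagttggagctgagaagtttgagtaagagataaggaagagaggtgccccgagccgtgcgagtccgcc
*Tbx20* held ACGTG from position -64 and GCGTG on the opposite strand from position -55, counted from the start site, and *Isl1* held ACGTG from position -195. These letters are common: 43.8% of 32851 RefSeq windows of this length held at least 1 of them. Of the 10 factors 7 had windows, 8 in all, and 5 of the 8 held the core, in *Tbx20*, *Isl2*, *Lhx3*, *Lhx4*, and *Onecut1*. The T-box core AGGTGT was on neither strand of the 8 windows, beside 13.7% of all windows, and neither was the longer AGGTGTGA that contains it, found in 1.28%. A match describes the letters only.

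*Tbx2* (ENSMUSG00000000093, chromosome 11, 85832551 to 85841948) encodes a T-box repressor known from the heart and limbs. Its normalized counts were 357 and 310 in the controls and 309, 602, and 573 in *Hif1aCKO*. *Hif1aCKO* replicate 3 lay just below the lower control, and the other *Hif1aCKO* libraries lay well above both. The means were 334 ± 33.6 (SD, n = 2) and 495 ± 162 (SD, n = 3), with a log2 fold change of 0.57 (SE 0.31). It was 0.82 without *Hif1aCKO* replicate 3 and 0.40 without *Hif1aCKO* replicate 4. The library that held *Tbx2* at the control level is the one with the glial markers, and with *Xist*, whose part in this value was not tested. Between libraries with *Xist* the value was 309 against 357 in the control, and between those without it was 602 and 573 against 310.

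*Tbx3* (ENSMUSG00000018604, chromosome 5, 119670669 to 119684724) is the closest relative of *Tbx2*. It had 75.0 and 99.2 normalized counts in the controls and 118, 154, and 130 in *Hif1aCKO*, so the groups did not overlap. The means were 87.1 ± 17.1 (SD, n = 2) and 134 ± 18.2 (SD, n = 3), and the log2 fold change was 0.62 (SE 0.34). With 1 library left out it lay between 0.43, without control replicate 5, and 0.83, without control replicate 6. The antisense gene *Tbx3os1*, with 0 to 13 counts per library, covers 1.74% of the exonic bases of *Tbx3*, and the reads were counted with default parameters and no named strand setting.

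Ratios within a library do not depend on its depth or scaling. There were 2.43 and 1.29 *Tbx2* counts per *Tbx20* count in the controls and 7.2, 9.0, and 8.92 in *Hif1aCKO*, with means of 1.86 ± 0.80 (SD, n = 2) and 8.37 ± 1.02 (SD, n = 3). For *Tbx3* there were 0.51 and 0.41 counts per *Tbx20* count in the controls and 2.75, 2.30, and 2.03 in *Hif1aCKO*. Both ratios have *Tbx20* as the denominator and therefore hold its difference again, together with those of *Tbx2* and *Tbx3*. The *Tbx2* to *Tbx3* ratio overlapped between genotypes, with 3.94 ± 1.16 (SD, n = 2) against 3.64 ± 0.92 (SD, n = 3) counts.

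*Tbx20* serves in motor neurons and the heart, so markers of both were set beside it. Of 13 cardiac muscle and epicardium markers 5 had rows. They summed to 1.04 and 7.42 normalized counts in the controls and 10.7 to 34.1 in *Hif1aCKO*, led by *Actc1* and *Myl7*, with *Tnni3* at 0 in every library. The other 8 cardiac markers had no row, and all *Hif1aCKO* sums lay above both controls. Of 16 motor neuron markers 11 had rows. They summed to 19397 and 19505 normalized counts in the controls and 14957 to 15099 in *Hif1aCKO*, most of it *Isl1*, which sympathetic neurons also express, and then *Foxp1*. Without *Isl1* the sums overlapped, at 6820 and 5485 against 6245 to 7157. *Olig2*, *Neurog2*, and *Nkx6-1*, which define motor neuron progenitors, had no row and were not analysed here. Of the 9 motor neuron markers tested, *Isl1* and *Slc18a3* lay below both controls in every *Hif1aCKO* library, beside 12.9% of all genes. None lay above both in every one, also beside 12.9%, and the rest overlapped. Among those that overlapped, the receptor gene *Ret* had a log2 fold change of 1.10 (SE 0.46), *Slit3* of 0.25 (SE 0.20), and *Slit2* of 0.14 (SE 0.27). The others were below 0: *Slc5a7* at -1.36 (SE 1.69), *Chat*, which makes acetylcholine, at -0.996 (SE 0.78), *Pou3f1* at -0.78 (SE 1.37), and *Foxp1* at -0.087 (SE 0.18). *Slc5a7* and *Pou3f1* had 0 to 60 and 1 to 27 counts per library. The vesicular acetylcholine transporter *Slc18a3*, like these except *Foxp1* named after the values were seen, had 611 and 839 normalized counts in the controls and 285, 266, and 524 in *Hif1aCKO*. Its log2 fold change was -1.02 (SE 0.32, adjusted p = 0.599 in edgeR's quasi-likelihood test). The part of other cell types in the *Tbx20* difference was not tested.

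**Figure D2:**
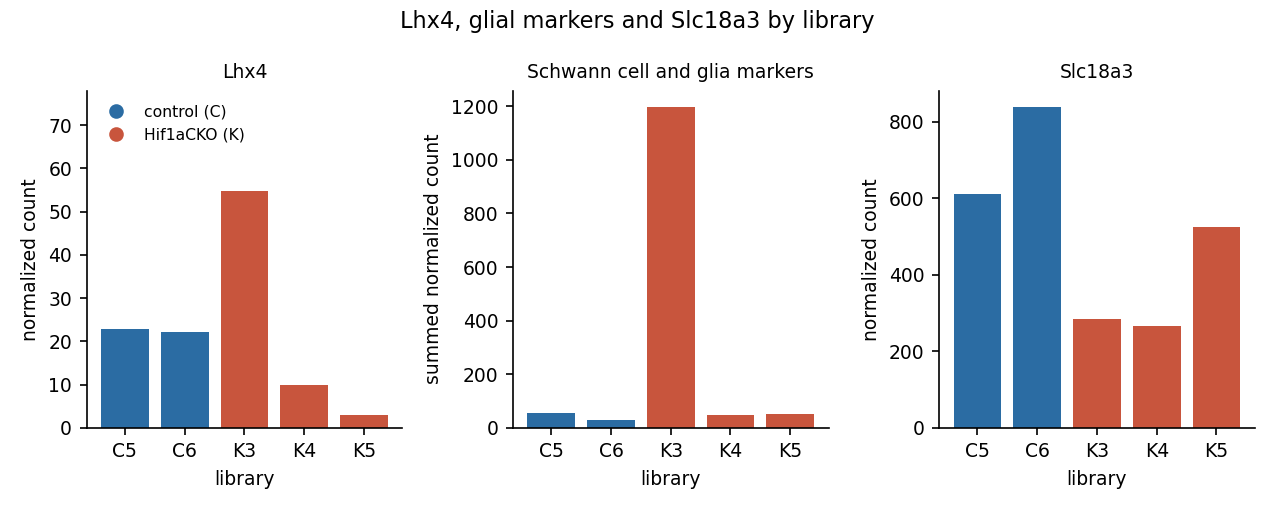
*Lhx4* normalized count, the summed normalized count of the 5 Schwann cell and glia markers with rows, and *Slc18a3* normalized count (vertical axes, each from 0) in each library, with C for control and K for *Hif1aCKO*. The K3 bar is the highest for *Lhx4*, at 54.7, and for the glial markers, at 1199, whereas *Slc18a3* was highest in C6, at 839.

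Among the LIM-homeodomain factors, *Lhx4* (ENSMUSG00000026468, chromosome 1, 155698031 to 155751684), which acts with *Lhx3* in motor neurons and the pituitary, was low and uneven. Its counts were 22 and 24 in the controls and 51, 10, and 3 in *Hif1aCKO*. The controls were alike, whereas the *Hif1aCKO* libraries spread on both sides of them, with 22.6 ± 0.46 (SD, n = 2) and 22.5 ± 28.1 (SD, n = 3) normalized counts. Exact 95% Poisson intervals were 38.0 to 67.1 counts for *Hif1aCKO* replicate 3, 4.80 to 18.4 for replicate 4, and 0.62 to 8.77 for replicate 5, and they understate the error of amplified reads. The log2 fold change was -0.0082 (SE 1.14). Without *Hif1aCKO* replicate 3 it was -1.79, and without *Hif1aCKO* replicate 5 it was 0.51. In replicate 3 the glial list was led by *Fabp7*, with 993 normalized counts and 0 to 8.76 in the other libraries. The glial markers *Erbb3*, *Cdh19*, and *Sox10* had 53.6, 54.7, and 8.58 there and at most 2.08 elsewhere, and *Lhx6*, a LIM-homeodomain gene of interneurons, had 17 counts there and at most 1 elsewhere. The part of these markers in the *Lhx4* value was not tested.

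*Isl2* (ENSMUSG00000032318, chromosome 9, 55538672 to 55546180), the relative of *Isl1* found in motor and sensory neurons, had 2 and 7 counts in the controls and 0, 0, and 1 in *Hif1aCKO*. Summed over libraries this was 9 counts in control and 1 in *Hif1aCKO*, too few for a fold change. Where a library had 0 counts, up to 3 counts are compatible with its depth. Hence *Isl2* was at the limit of detection in both genotypes, and of the 9 control counts 7 were in replicate 6. Sensory neuron markers were low as well: of 12, 7 had rows, and they summed to 100.0 and 97.4 normalized counts in the controls and 122 to 220 in *Hif1aCKO*, led by *Neurod1* and *Runx1*.

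*Onecut2* (ENSMUSG00000045991, chromosome 18, 64340020 to 64400987), a cut-homeodomain factor of early neurons, was the most counted of the factors. It had 751 and 940 normalized counts in the controls and 994, 734, and 625 in *Hif1aCKO*. The *Hif1aCKO* libraries lay on both sides of the controls. The means were 845 ± 133 (SD, n = 2) and 784 ± 190 (SD, n = 3), and the log2 fold change of -0.11 (SE 0.23) turned to 0.057 without control replicate 6 and to 0.032 without *Hif1aCKO* replicate 5. Without *Hif1aCKO* replicate 3 it was -0.32. Of the 5 fitted factors it had the lowest coefficient of biological variation in edgeR's fit, 0.195, and *Lhx4* the highest, 0.860, beside a median of 0.289 over all genes tested.

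**Figure D3:**
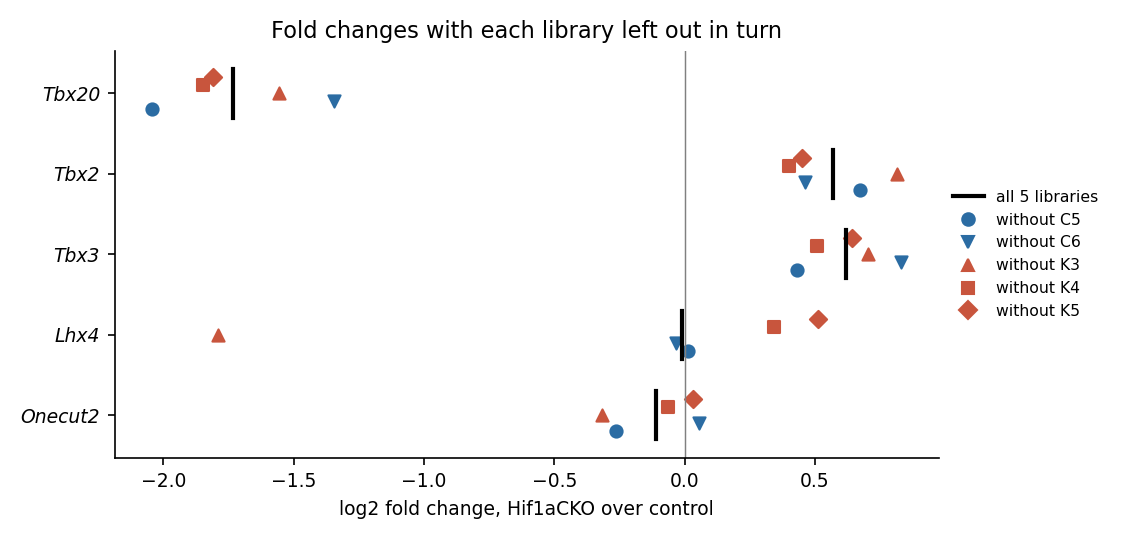
Log2 fold change of *Hif1aCKO* over control (horizontal axis) for the 5 fitted factors, with black bars for the fit to all 5 libraries and symbols for fits with 1 library left out, coloured by its genotype. *Tbx20* lay between -2.04 and -1.34, *Tbx2* and *Tbx3* stayed above 0, and *Lhx4* moved to -1.79 without K3.

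Levels of different genes were compared as normalized counts per kilobase of annotated exon, as mean ± SD over all 5 libraries. *Tbx2* had 119 ± 40.1 (SD, n = 5), *Onecut2* 49.8 ± 9.45 (SD, n = 5), *Tbx3* 17.4 ± 4.53 (SD, n = 5), *Tbx20* 9.34 ± 6.79 (SD, n = 5), *Lhx4* 3.93 ± 3.46 (SD, n = 5), and *Isl2* 0.87 ± 1.23 (SD, n = 5). The level of *Tbx2* exceeded that of 72.7% of the genes tested, that of *Onecut2* 53.5%, that of *Tbx3* 29.7%, that of *Tbx20* 18.5%, and that of *Lhx4* 7.55%. *Tbx2* lay above *Onecut2*, and *Onecut2* above *Tbx3*, in 5 of 5 libraries. Before division by exon length, *Onecut2* had more normalized counts than *Tbx2* in every library. *Tbx3* and *Tbx20* changed places: the level of *Tbx20* was the higher in 2 of 2 control libraries and that of *Tbx3* in 3 of 3 *Hif1aCKO* libraries. *Tbx20* lay above *Lhx4* in 4 of 5 libraries, with *Lhx4* the higher in *Hif1aCKO* replicate 3. *Lhx4* lay above *Isl2* in 5 of 5 libraries, at low counts of both. These orders were not tested, and the SDs over all libraries include the differences between genotypes.

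Of 4 planned pairs of paralogues, 2 had rows for both genes and were compared within libraries. Per kilobase of exon, with 0.5 added to each count, *Tbx2* exceeded *Tbx3* by 2.74 ± 0.36 (SD, n = 5) on the log2 scale, from 4.77-fold in *Hif1aCKO* replicate 3 to 8.66-fold in control replicate 5. *Isl1* exceeded *Isl2* by 11.9 ± 1.26 (SD, n = 5) on the log2 scale. With counts summed over libraries, 52017 for *Isl1* and 10 for *Isl2*, the ratio per kilobase was 2881 (exact 95% interval 1567 to 6009, counting error only). Both differences pointed the same way in 5 of 5 libraries. The exact two-sided paired permutation test gave p = 0.062 for each (also 0.062 after Benjamini-Hochberg adjustment over the 2 pairs), the smallest value that 5 libraries allow, so the design could not reach 0.05.

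**Figure D4:**
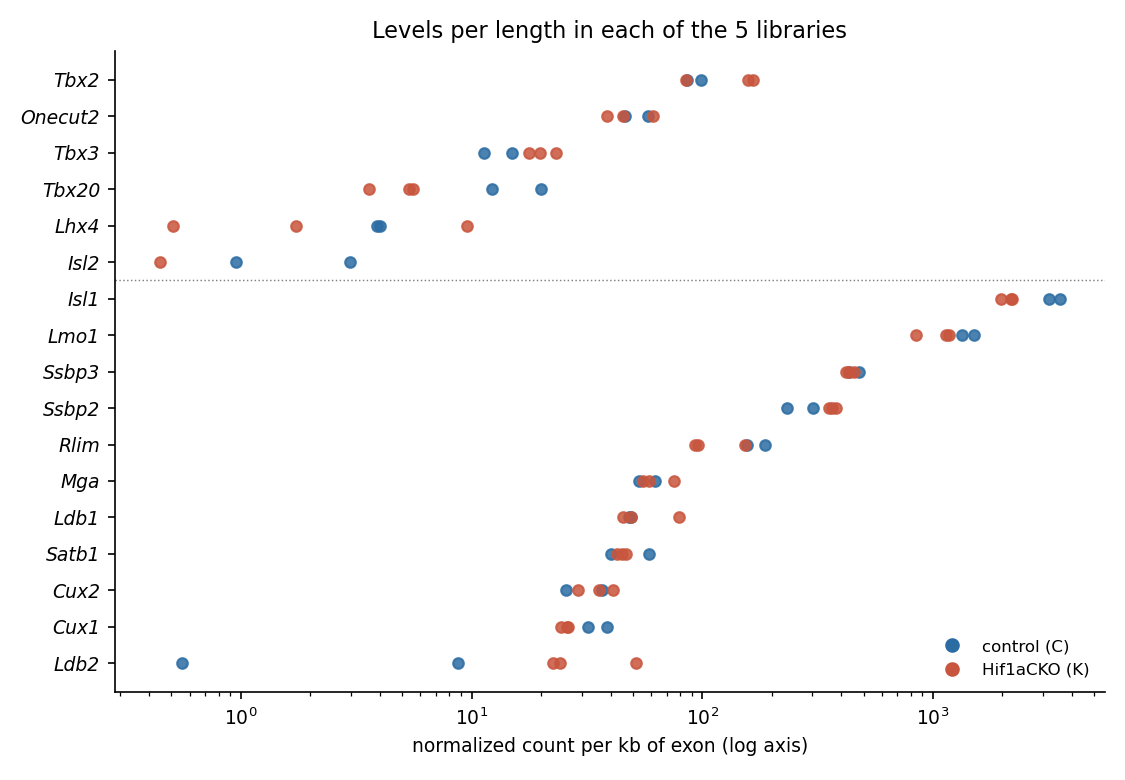
Normalized counts per kilobase of exon (horizontal log axis) in each of the 5 libraries, for the 6 factors above the dotted line and for 11 related genes below it. Libraries with 0 counts are not drawn, which concerns *Isl2* in 2 *Hif1aCKO* libraries. *Tbx2* led the 6 factors with a mean of 119, and *Isl1* lay above all others shown.

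The relatives and cofactors of these factors were taken from lists of family membership. Of 37 genes in 4 lists (other T-box, other LIM-homeodomain, LIM-domain cofactor, and other cut-homeodomain genes) 18 had rows and 14 were tested. edgeR's quasi-likelihood test called 0 of the 14. With p below 0.05 before adjustment, 4 were lower and 2 higher in *Hif1aCKO*, beside 7.67% of all genes in either direction. DESeq2 called 1, *Isl1*, and limma-voom called 0. The median log2 fold change of the 14 was -0.10, beside 0.012 over all genes tested.

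*Isl1* (ENSMUSG00000042258) was the only LIM-homeodomain relative tested, out of 3 with rows in a list of 8. It had 12577 and 14019 normalized counts in the controls and 8634, 7800, and 8722 in *Hif1aCKO*. All *Hif1aCKO* libraries lay below both controls, with a log2 fold change of -0.67 (SE 0.10, adjusted p = 0.446 in edgeR's quasi-likelihood test) that ranged from -0.74 to -0.59 with 1 library left out. *Lhx9* had 0 to 3 counts per library. Of 14 other T-box genes 2 had rows. *Mga*, which holds a T-box and also pairs with Max, differed by a log2 fold change of 0.12 (SE 0.19), and *Tbx19*, a pituitary factor, had 0 to 3 counts per library and was not tested. The level of *Mga* averaged 60.8 normalized counts per kilobase of exon, below the 119 of *Tbx2*.

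All 10 LIM-domain cofactors had rows and 9 were tested, with a median log2 fold change of -0.061 and 4 with p below 0.05 before adjustment, 2 in each direction. *Ldb1*, which bridges LIM-homeodomain proteins and is named here outside the rule, had 226 and 223 normalized counts in the controls and 208, 366, and 226 in *Hif1aCKO*, so the groups overlapped. The antisense gene *Pprc1* covers 3.84% of its exonic bases. Its relative *Ldb2* had 28 and 2 counts in the controls and 75, 173, and 77 in *Hif1aCKO*. The groups did not overlap, and the log2 fold change of 2.83 (SE 0.96, adjusted p = 0.621 in edgeR's quasi-likelihood test) was 1.90 without control replicate 6 and 5.79 without control replicate 5. *Lmo1*, a LIM-only protein that competes for *Ldb1*, had 2345 and 2072 normalized counts in the controls and 1814, 1312, and 1763 in *Hif1aCKO*, with a log2 fold change of -0.44 (SE 0.18).

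*Rlim*, a ubiquitin ligase that marks LIM cofactors for degradation, had 1396 and 1672 normalized counts in the controls and 1359, 831, and 857 in *Hif1aCKO*, with a log2 fold change of -0.60 (SE 0.24). *Hif1aCKO* replicate 3 lay just below the lower control. *Ssbp2*, which stabilizes *Ldb1*, had 2416 and 1849 normalized counts in the controls and 2903, 2829, and 3039 in *Hif1aCKO*, with a log2 fold change of 0.45 (SE 0.15), which was 0.27 without control replicate 6. The antisense gene *4833422C13Rik*, with 131 to 295 counts per library, covers 22.1% of its exonic bases. Its paralogue *Ssbp3* overlapped between groups, at -0.061 (SE 0.13). *Lmo1*, *Rlim*, and *Ssbp2* had adjusted p-values of 0.627, 0.626, and 0.621 in the same edgeR test.

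Of 5 other cut-homeodomain genes 3 had rows and were tested. *Cux1*, a repressor of many tissues with 1.97% of its exonic bases under the antisense gene *Gm16599*, was lower in each *Hif1aCKO* library, with 776 and 638 normalized counts in the controls and 488, 517, and 523 in *Hif1aCKO*. Its log2 fold change was -0.47 (SE 0.18, adjusted p = 0.621 in edgeR's quasi-likelihood test). *Cux2* and *Satb1* overlapped between groups, with log2 fold changes of 0.17 (SE 0.26) and -0.15 (SE 0.20), and both changed sign without control replicate 6, to -0.067 and 0.14.

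**Figure D5:**
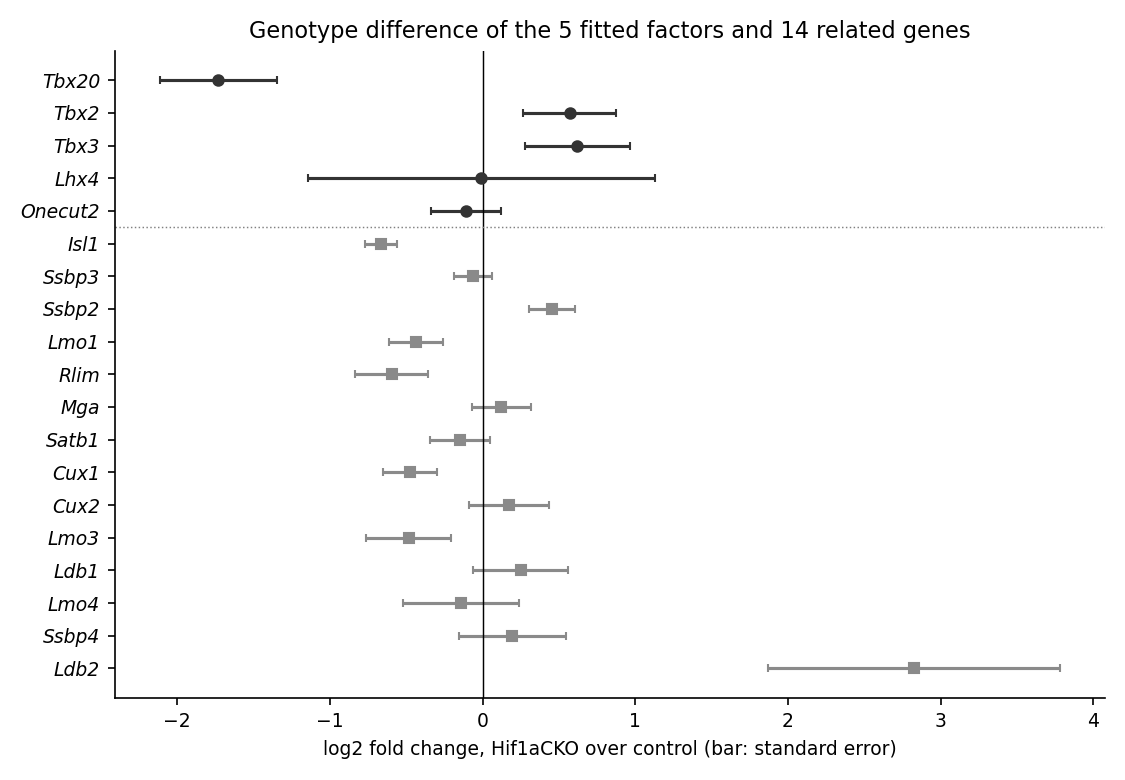
Log2 fold change of *Hif1aCKO* over control with its standard error (horizontal axis) for the 5 fitted factors (circles, above the dotted line) and the 14 tested relatives and cofactors (squares). *Tbx20*, at -1.73, is the lowest value shown and *Ldb2*, at 2.83, the highest, with a standard error of 0.96.

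The remaining marker lists are given as values, and their part in the factors' values was not tested. Of 13 spinal interneuron markers 3 had rows, led by *Gata3*, which sympathetic neurons share, and *Gad2*. Without *Gata3* they summed to 80.2 and 104 normalized counts in the controls and 153 to 443 in *Hif1aCKO*. Nearly all of this was *Gad2*, with 71.9 and 103 in the controls and 153, 441, and 254 in *Hif1aCKO*. The study reported *Gad2* as raised in these neurons, so the sum describes that gene and not the list. The 6 chromaffin cell markers, led by *Cartpt* and *Chgb*, summed to 16121 and 17504 in the controls and 16562 to 21996 in *Hif1aCKO*. That sum hides opposite differences. *Cartpt* had 7650 and 6243 normalized counts in the controls and 13438, 11310, and 17992 in *Hif1aCKO*. *Chgb* had 5514 and 8695 against 776, 4732, and 1106. Of the 4 tested, 2 lay below both controls in every *Hif1aCKO* library and 1 above both, each beside 12.9% of all genes. edgeR's quasi-likelihood test called 0 of them and DESeq2 called 1 (*Cartpt*). Of 6 erythroid markers only *Alas2* had a row, with 8.33 and 13.9 normalized counts in the controls and 15.0 to 31.0 in *Hif1aCKO*.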

How the data were processed

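RNA-seq of 5 libraries was analysed. The authors trimmed reads with cutadapt (version 1.18) and Trimmomatic, removed ribosomal and vector reads with Bowtie (version 1.2.2) and SortMeRNA, mapped to GRCm38 with STAR (version 2.7.0c), and counted with Rsubread, leaving out multi-mapping reads. The deposited table holds these raw read counts per Ensembl gene. Names, positions, and exon lengths came from GENCODE M21 on GRCm38, which held 20195 of the identifiers. The authors used release M8. Promoter windows are RefSeq sequences on GRCm38.p6.

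Genotypes were compared in R (version 4.3.3) by the quasi-likelihood test of edgeR (version 4.0.16), after filterByExpr and TMM normalization, with Benjamini-Hochberg adjustment over all genes tested. The study used DESeq2, which was an alternative here (version 1.42.0), as was limma-voom (version 3.58.1). The fit was tested on simulated data. Total counts of 8254211 to 9700887 per library set the precision, and Poisson and binomial intervals (exact, 95%) cover counting error only.

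The factors and gene lists were chosen with earlier results of these data known. Named genes were the 10 factors, *Hif1a*, *Isl1*, *Xist*, *Ddx3y*, the 3 genes with the highest mean level in each family list, family genes with p below 0.05 before adjustment and groups that do not overlap, and the 2 highest genes of each marker list, of which 1 is not reported here. Genes named outside this rule, after their values were seen, are glial, cardiac, and motor neuron markers, *Th*, *Dbh*, *Gata2*, *Ldb1*, and overlapping genes. Promoter windows of *Tbx2*, *Tbx3*, and *Onecut2* were not used here. Python (version 3.11.15), scipy (version 1.17.1), and matplotlib (version 3.10.9) were used for the rest. Alternatives were RLE and upper-quartile normalization, the likelihood ratio test, no filter, at least 10 counts in every library, no minimum mean, an adjusted p-value under 0.1, other lengths and added counts for paralogues, and leaving out each library in turn.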

Additional observations from a re-analysis of the deposited data

How the results depend on the processing

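edgeR's quasi-likelihood test called 0 genes over the whole table, with 1153 genes below 0.05 before adjustment, and 0 among the relatives and cofactors. DESeq2 called 60 genes and 1 relative (*Isl1*), and the likelihood ratio test called 40 genes and 1 relative (*Isl1*). Each of these called *Tbx20* as well. With 1 library left out, the number of calls over all genes was 0 to 4. The 4 were *Parva*, *Rgs4*, *Gm10260*, and *Gm26619*, called without control replicate 5, where the single control left is assumed to vary like the other group. All other alternatives called 0 genes. Of the 5 fitted factors 3 had a fold change below 0 (*Tbx20*, *Lhx4*, and *Onecut2*), and with 1 library left out this number was 1 to 3, because *Lhx4* and *Onecut2* lie near 0. Under limma-voom the log2 fold change of *Lhx4* was -0.95. *Tbx20* stayed between -1.74 and -1.69 under every alternative that kept all libraries. The paralogue differences kept their direction under every alternative run: without division by exon length *Tbx2* exceeded *Tbx3* by 1.87 and *Isl1* exceeded *Isl2* by 12.7 on the log2 scale, with an added count of 1 the differences were 2.74 and 11.3, and with 1 library left out they ranged from 2.65 to 2.86 and from 11.6 to 12.3. The pairs *Lhx4* with *Lhx3* and *Onecut2* with *Onecut1* were not run, since *Lhx3* and *Onecut1* had no row. No paired analysis was possible because no pairing of libraries is recorded, and the shared replicate number 5 is not said to mark a pair. *Isl2* and *Lhx4* are limited by counts of 0 to 7 and 3 to 51 per library, and no group had enough libraries to look for single outlying values.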
